A study of Mus musculus with 8 samples.

Results

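The SLC4 family of membrane transporters was described in microdissected outer medullary collecting ducts, the stretch of the kidney's collecting system that crosses the outer medulla, of mice on a high-salt or a normal-salt diet. The members were chosen by gene symbol, as Slc4a1 to Slc4a5 and Slc4a7 to Slc4a11, and all 10 were found among the 55291 gene rows. The filter on low values, at least 1 CPM (counts scaled to a library total of 1000000) in at least 4 of the 8 libraries, was passed by 9 of the 10, against 13401 genes in all. Slc4a10 did not pass it.

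Both groups were C57BL/6J mice, an inbred laboratory strain, and the labels name no allele or agent other than the diet. High-salt mice ate 3% salt for 3 days and normal-salt mice 0.3% salt. Each diet had 4 libraries, and each library held 100 to 120 tubules pooled from 1 mouse and freed from the kidney with the enzyme mix liberase. The labels give no age or sex. The comparison asks which transcripts of this segment differ between the diets.

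SLC4 proteins carry bicarbonate across cell membranes, in exchange for chloride or together with sodium, and so move base into or out of cells. In the collecting duct, acid-secreting intercalated cells pump protons into the urine and return the bicarbonate formed inside the cell to the blood through the exchanger AE1, the product of Slc4a1. Base-secreting intercalated cells, which are known mainly from the cortex, release bicarbonate into the urine. The sodium-coupled members are best known for bicarbonate uptake and for the reabsorption of bicarbonate in the proximal tubule. Slc4a11 belongs to the family by sequence but is not known as a bicarbonate carrier.

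The libraries held 69.2 to 87.7 M estimated counts under high salt and 64.8 to 94.1 M under normal salt, so 1 count was worth 0.0106 to 0.0154 CPM. Libraries are named by diet and by the number in their column name, since the columns could not be tied to single sample titles. Principal cell markers summed to 25728 to 31353 CPM under high salt and 17734 to 22972 CPM under normal salt, a gap that rests on the water channel genes Aqp2 (15689 ± 1618 and 9979 ± 2120 CPM, SD, n = 4 each) and Aqp3 (4328 ± 729 and 2688 ± 382 CPM), since 4 of the 8 markers had lower means under high salt. Markers of acid-secreting intercalated cells summed to 4005 to 5140 CPM under high salt and 4200 to 5364 CPM under normal salt. Normal-salt library 1 stood apart: its median ratio of CPM to TPM (the same kind of share after division by transcript length) was 1.6, against 1.32 to 1.38 in the other 7, and it had the highest sums of fibroblast (299 CPM), macrophage (85.6 CPM) and red cell (13.8 CPM) markers. Summed markers of the thick ascending limb, which runs beside these ducts, ranged from 104 to 2798 CPM under high salt and from 617 to 2183 CPM under normal salt. In pooled tubules, fewer cells of a type and less RNA per cell cannot be told apart.

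Slc4a4, which encodes the sodium bicarbonate cotransporter NBCe1, was the 1 member of the 9 tested that limma called between the diets, against 0.0821% of all genes tested. The call was lost under 8 of 23 alternatives, 5 of them fits that left out 1 library. The difference of a member that was not called is not shown to be absent. An earlier analysis of these data had already called Slc4a4, so the count of members called is not evidence about the family. Slc4a4 is transcribed from alternative starts, and the values are per gene, so the starts are not separated. In GENCODE M21 on mm10 the gene spans chr5:88886818-89239653 on the plus strand, with 7 coding transcripts. An upstream group, which holds the forms known as NBCe1-B and NBCe1-C, begins at the 5′ end of the gene, with 3 coding transcripts. A downstream group, also of 3, begins in a later intron from position 89027966 and holds the form known as NBCe1-A from the proximal tubule, and 1 coding transcript begins between them. The coding sequences specific to the upstream and the downstream start, each read from 1 GENCODE M21 transcript, are shown. Transcripts of either start would count toward the gene's total. The start codon is in capitals and each sequence ends where the coding sequences become the same.
Slc4a4 downstream start, 121 coding bases: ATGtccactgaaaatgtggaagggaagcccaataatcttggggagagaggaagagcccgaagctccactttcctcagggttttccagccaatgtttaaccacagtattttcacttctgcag
Slc4a4 upstream start, 253 coding bases: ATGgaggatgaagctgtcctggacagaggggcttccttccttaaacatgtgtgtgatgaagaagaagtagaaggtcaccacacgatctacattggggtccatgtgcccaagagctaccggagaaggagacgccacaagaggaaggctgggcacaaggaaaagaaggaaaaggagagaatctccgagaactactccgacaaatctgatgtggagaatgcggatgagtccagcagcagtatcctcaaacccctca

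The 250 bases before the downstream start, chr5:89027716-89027965 on the plus strand of GRCm38.p6 (RefSeq), are shown with CpG dinucleotides in capitals.
Slc4a4 downstream promoter window: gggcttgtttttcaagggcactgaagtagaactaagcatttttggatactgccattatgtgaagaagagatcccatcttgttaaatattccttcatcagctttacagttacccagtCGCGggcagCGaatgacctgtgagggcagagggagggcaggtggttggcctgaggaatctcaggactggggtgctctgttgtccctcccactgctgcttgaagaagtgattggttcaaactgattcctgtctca
This window had 48.8% G and C and 3 CpG dinucleotides, and 36.6% of 32851 mouse windows of the same kind had a lower GC content. The window of the upstream start had 82% G and C and 44 CpG dinucleotides, and 99.4% of all windows had a lower GC content. It lies wholly within an annotated exon and is not printed. The letters AGAACA (bound by steroid receptors, in 16.1% of all windows), TGGAAA (the core of a tonicity element, 18.6%) and TGTTTAC (a forkhead core, 3.17%) were searched on both strands, and none was found in either Slc4a4 window. Among the 10 windows of the 7 members searched, AGAACA occurred in that of Slc4a5, and TGGAAA in that of Slc4a7 and in 1 of the 2 of Slc4a10. No window was at hand for Slc4a1 and Slc4a11, and Slc4a9 was left out of the search. Windows that share letters are a description of sequence and not of binding.

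Levels between genes are compared in TPM. Slc4a1 was the most abundant member in every library, with 85.4% ± 4.73 of the summed SLC4 TPM under high salt and 82.1% ± 4.54 under normal salt (SD, n = 4 each). It averaged 1329 ± 211 TPM under high salt and 1265 ± 371 TPM under normal salt. The other 9 members together summed to 219 ± 43.1 TPM and 263 ± 62.1 TPM.

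Under high salt the order of mean TPM below Slc4a1 was Slc4a9 (62.1), Slc4a2 (57.7), Slc4a5 (26.6), Slc4a8 (23.7), Slc4a4 (18.8), Slc4a3 (16.6), Slc4a11 (9.32) and Slc4a7 (4.65). Slc4a1 lay above Slc4a9, Slc4a2 above Slc4a5, and Slc4a7 above Slc4a10 in library ranges that did not overlap, while all other neighbours overlapped. Under normal salt the order was Slc4a9 (123), Slc4a2 (58.1), Slc4a8 (26.2), Slc4a5 (22.9), Slc4a3 (17.3), Slc4a4 (7.17), Slc4a11 (5.86) and Slc4a7 (2.41). Ranges overlapped there between Slc4a8 and Slc4a5, Slc4a5 and Slc4a3, Slc4a4 and Slc4a11, and Slc4a11 and Slc4a7. The range of Slc4a4 overlapped those of Slc4a8 and Slc4a3 under high salt and lay wholly below that of Slc4a3 under normal salt.

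**Figure D1:**
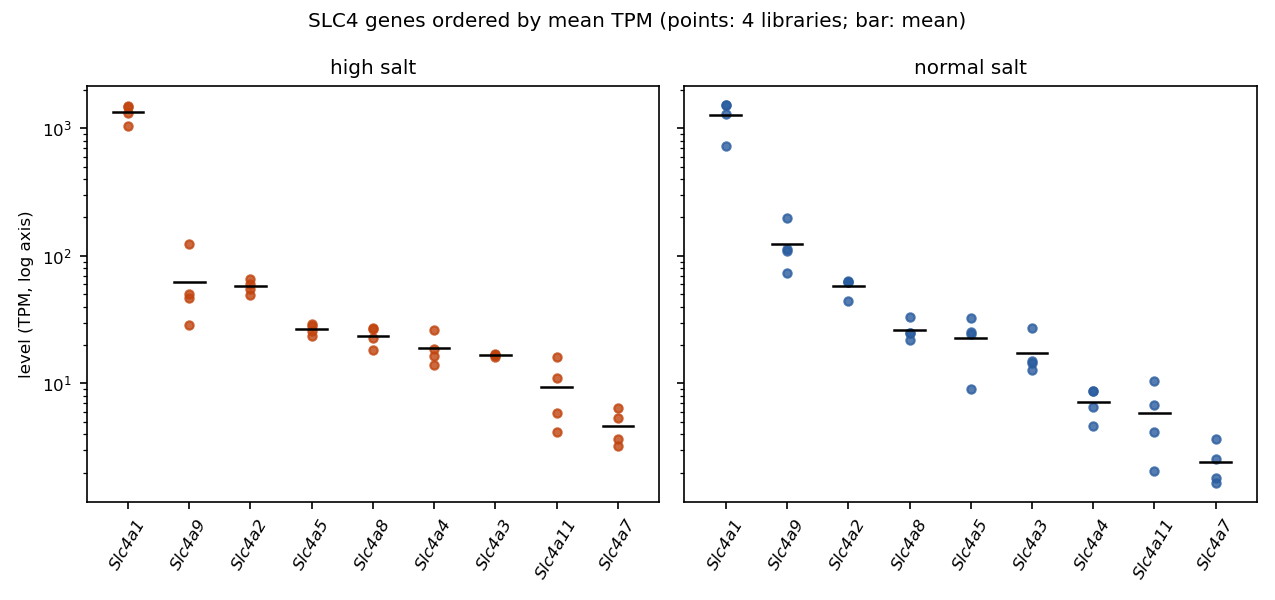
Levels of 9 SLC4 genes in TPM (log axis) under high salt (left) and normal salt (right), ordered by mean, with 1 point per library and a bar at the mean of 4 libraries. Slc4a1 stands above all others, at 1329 and 1265 TPM on average, and Slc4a10, listed at 0 in 6 of 8 libraries, is not drawn.

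Among the chloride-bicarbonate exchangers, no difference with the diet was detected. Slc4a1 had 3017, 2995, 2802 and 2072 CPM in high-salt libraries 2, 3, 4 and 6, against 2074, 2997, 3257 and 2508 CPM in normal-salt libraries 1, 2, 3 and 6. The lowest library of each diet was nearly the same, and the ranges overlapped almost fully. The log2 difference, high salt minus normal salt on the log2(CPM + 1) scale, was 0.01 (SE 0.18, 95% interval -0.39 to 0.41, adjusted p = 0.99, limma with Benjamini-Hochberg adjustment over all 13401 genes), and its sign turned under 10 of 23 alternatives, among them upper quartile scaling. The interval covers changes between 0.764-fold and 1.33-fold.

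Red cells also hold AE1. The 9 red cell markers in the files summed to 0.106 to 0.855 CPM under high salt and 0.340 to 13.8 CPM under normal salt, and Rhag was at 0 counts in all libraries. Slc4a1 was 3259 to 28131 times that sum in the high-salt libraries and 151 to 9583 times in the normal-salt libraries. Beside markers of acid-secreting intercalated cells, the ratio of Slc4a1 to their summed CPM was 0.568 ± 0.0402 under high salt and 0.570 ± 0.0843 under normal salt (SD, n = 4 each).

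Slc4a2, the widely expressed exchanger AE2 of basolateral membranes, had 124, 117, 115 and 137 CPM under high salt and 106, 129, 124 and 123 CPM under normal salt. It was the least variable member under normal salt, with a coefficient of variation of 8.37%, and 8.26% under high salt. Its log2 difference was 0.03 (SE 0.09, 95% interval -0.18 to 0.24, adjusted p = 0.941), and the sign turned with TPM. Of its exonic bases 1141 (13.7%) lie over exons of Fastk on the other strand, and the strand setting of the counting is not given, so part of its reads may belong to Fastk.

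Slc4a3, the exchanger AE3, is best known from brain and heart. It had 34.0, 35.1, 33.9 and 36.9 CPM under high salt, against 32.5, 32, 34.5 and 49.0 CPM under normal salt. Normal-salt library 6 was higher than the other 7. The log2 difference was -0.06 (SE 0.13, adjusted p = 0.922) and turned to 0.08 without that library.

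Among the electrogenic sodium bicarbonate cotransporters, which carry net charge, Slc4a4 rose under high salt. It had 61.7, 72.7, 120 and 84.2 CPM in high-salt libraries 2, 3, 4 and 6, against 25.2, 38.2, 29.4 and 32.9 CPM in normal-salt libraries 1, 2, 3 and 6. All 4 high-salt libraries lay above all 4 normal-salt libraries, as was the case for 3.66% of the genes tested. The log2 difference was 1.37 (SE 0.19, 95% interval 0.95 to 1.80, adjusted p = 0.0336), or 2.59-fold (1.93 to 3.48) on that scale. Limma called 11 of 13401 genes (0.0821%), of which 4 were higher (0.0298%) and 7 lower (0.0522%), and Slc4a4 ranked 9 by p.

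The direction held under every alternative tried and the call did not. Leaving out 1 library at a time gave log2 differences of 1.19 to 1.51, and the adjusted p stayed under 0.05 without high-salt library 2 or normal-salt library 1 or 2 (0.0362 to 0.0478) and was 0.0517 to 0.109 without high-salt library 3, 4 or 6 or normal-salt library 3 or 6. In TPM, Slc4a4 had 13.9, 16.5, 26.3 and 18.5 under high salt and 4.66, 8.78, 6.57 and 8.68 under normal salt, with a log2 difference of 1.27 on the log2(TPM + 1) scale and an adjusted p of 0.116. An exact permutation test (two-sided, 70 ways to assign the libraries) gave p = 0.0286, the smallest that this design allows.

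**Figure D2:**
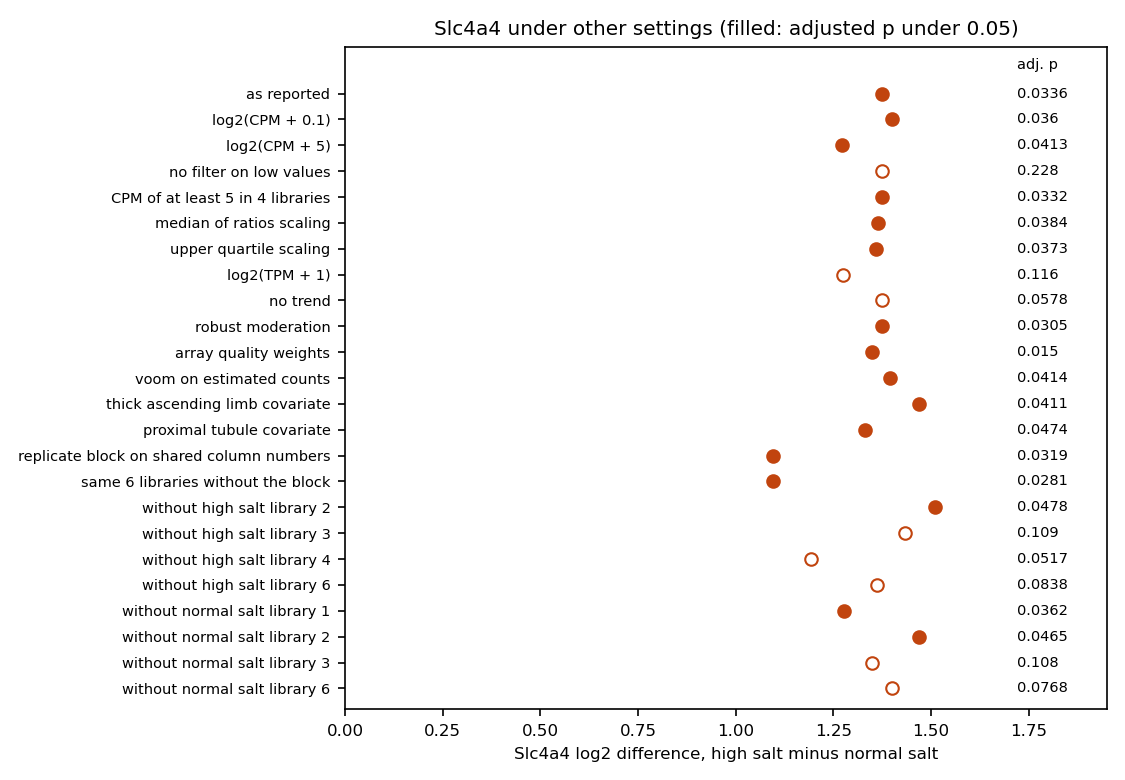
Log2 difference of Slc4a4 (high salt minus normal salt) as reported and under 23 other settings, with the adjusted p at the right; filled points have an adjusted p under 0.05. All points lie between 1.09 and 1.51, and 8 of the 23 are open.

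Slc4a4 is also abundant in the proximal tubule. The 13 proximal tubule markers summed to 31.5, 22.8, 119 and 183 CPM in the high-salt libraries, against 125, 54.7, 20.7 and 45.9 CPM in the normal-salt libraries, and Slc5a12 was at 0 counts in all 8. Slc34a1, Slc5a2, Slc22a6 and Slc22a8 reached at most 2.40, 0.463, 0.347 and 0.0456 CPM. Of the 13 markers, 4 passed the filter on low values. The sum came mainly from Kap and Slc27a2. Kap was at 43.4 ± 42.9 CPM under high salt and 34.3 ± 34.7 CPM under normal salt, and Slc27a2 at 28.3 ± 13.9 and 19.5 ± 6.27 CPM (SD, n = 4 each). The ratio of Slc4a4 to the sum of the 13 markers was 0.461 to 3.18 in the high-salt libraries and 0.201 to 1.43 in the normal-salt libraries, which overlapped. High-salt libraries 4 and 6 were high in both Slc4a4 and this sum. Normal-salt library 1 lay above high-salt library 4 in this sum and was the lowest of all 8 in Slc4a4 (25.2 CPM). High-salt libraries 2 and 3 had low sums (31.5 and 22.8 CPM) with Slc4a4 at 61.7 and 72.7 CPM. The part of proximal tubule tissue in the difference was not tested beyond a covariate. That covariate was the mean of the 4 markers that passed the filter on low values. With it limma gave a log2 difference of 1.33 (adjusted p = 0.0474). With the marker mean of the thick ascending limb it gave 1.47 (adjusted p = 0.0411).

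The ratio of CPM to TPM depends on the transcript lengths assigned to a gene in each library. Relative to the library's median, it was 3.21 to 3.32 for Slc4a4 under high salt and 2.88 to 3.39 under normal salt, so the diets overlapped. Of the 50-base stretches in its transcripts, 0.00921% also occur in another gene, and no exon overlaps that of another gene.

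Slc4a5, the cotransporter NBCe2 of choroid plexus and kidney tubules, had 87.9, 82.8, 73.4 and 58.2 CPM under high salt, against 33.6, 86.8, 78.6 and 72.9 CPM under normal salt. Normal-salt library 1 was the lowest and the other 7 overlapped. The log2 difference was 0.22 (SE 0.26, adjusted p = 0.823) and turned to -0.08 without that library. Summed over both electrogenic members, TPM was 45.4 ± 4.47 under high salt and 30.0 ± 11.7 under normal salt (SD, n = 4 each).

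Of the electroneutral sodium bicarbonate transporters, Slc4a7 and Slc4a8 did not pass limma's test and Slc4a10 did not enter it. Slc4a7 encodes NBCn1, which takes up sodium and bicarbonate without net charge and is known from the thick ascending limb and from outer medullary intercalated cells. It had 11.7, 12.7, 21.2 and 24.0 CPM under high salt, against 7.23, 9.87, 12.3 and 6.51 CPM under normal salt. Normal-salt library 3 lay above high-salt library 2, and otherwise the diets did not overlap. The log2 difference was 0.86 (SE 0.25, 95% interval 0.30 to 1.42, unadjusted p = 0.00636, adjusted p = 0.23), and the exact permutation p was 0.0571.

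The difference of Slc4a7 kept its sign under all 23 alternatives, with adjusted p-values of 0.219 to 0.617. Markers of the thick ascending limb summed to 104, 104, 472 and 2798 CPM in the high-salt libraries, against 2183, 939, 617 and 1666 CPM in the normal-salt libraries. The ratio of Slc4a7 to these markers was 0.00856 to 0.122 in the high-salt libraries and 0.00331 to 0.0199 in the normal-salt libraries, which overlapped. The part of this tissue in the difference was not tested beyond a covariate. With the marker mean as a covariate the log2 difference was 1.06 (adjusted p = 0.245).

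Slc4a8, the sodium-driven chloride-bicarbonate exchanger NDCBE of base-secreting intercalated cells, had 90.9, 79.8, 72.5 and 81.5 CPM under high salt, against 63.3, 89.2, 91.8 and 79.7 CPM under normal salt. The diets overlapped, and the log2 difference was 0.01 (SE 0.12, 95% interval -0.26 to 0.29, adjusted p = 0.982). In TPM it was -0.14 (adjusted p = 0.849). The ratio of CPM to TPM relative to the library's median ran from 1.59 to 2.88 for this gene, the widest span of the 9 tested members, so its levels depend more than those of the others on the transcript lengths assigned.

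Slc4a10, a transporter of neurons and choroid plexus, was at 0 counts in all 4 high-salt libraries and in normal-salt libraries 2 and 3. It had 2 and 5 estimated counts in normal-salt libraries 1 and 6. A count of 0 allows up to 3 counts, which is 0.0342 to 0.0434 CPM in the high-salt libraries. A difference smaller than that could not be detected at this depth. These limits cover counting error only.

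The remaining members, Slc4a9 and Slc4a11, had the widest spread between mice of the 9 tested, with coefficients of variation of 69.7% and 61.7% under high salt and 40.0% and 54.0% under normal salt. Slc4a9 encodes AE4, a transporter of the basolateral membrane of base-secreting intercalated cells. It had 82.5, 55.0, 91.3 and 235 CPM under high salt, against 230, 202, 133 and 353 CPM under normal salt. High-salt libraries 2, 3 and 4 lay below all normal-salt libraries, and high-salt library 6 lay above normal-salt libraries 1, 2 and 3. The log2 difference was -1.11 (SE 0.40, 95% interval -2.0 to -0.23, unadjusted p = 0.0185, adjusted p = 0.363), with an exact permutation p of 0.114.

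Without high-salt library 6 the log2 difference of Slc4a9 was -1.52 (adjusted p = 0.11). With the mean of the thick ascending limb markers as a covariate it was -0.47 (adjusted p = 0.697). With that of the proximal tubule markers it was -1.33 (adjusted p = 0.0786). Limma called it in the fit on the 6 libraries whose column numbers both diets share, with the number as a block (log2 difference -1.04, adjusted p = 0.04), and not in the same 6 without the block (adjusted p = 0.524).

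Slc4a9 was set beside markers of base-secreting intercalated cells. The 4 genes Slc26a4, Insrr, Spink8 and Hmx2 summed to 188, 168, 244 and 468 CPM under high salt, against 377, 344, 231 and 327 CPM under normal salt. High-salt library 6 was the highest of all 8 in these markers and the second highest in Slc4a9. Normal-salt library 6, the highest in Slc4a9, lay below normal-salt libraries 1 and 2 in these markers. The ratio of Slc4a9 to this sum was 0.328 to 0.503 in the high-salt libraries and 0.577 to 1.08 in the normal-salt libraries, which did not overlap. That gap depended on Spink8, which had 97.3, 105, 123 and 129 CPM under high salt, against 131, 88.4, 101 and 49.4 CPM under normal salt, and whose mean was higher under high salt while those of the other 3 were lower. Without Spink8 the ratio was 0.694 to 0.913 in the high-salt libraries and 0.791 to 1.27 in the normal-salt libraries, which overlapped. Against Slc26a4 alone, which encodes the apical exchanger pendrin of these cells, the ratio was 1.10 to 1.87 under high salt and 1.41 to 2.29 under normal salt, which overlapped. These ratios were computed after the values were seen and have no test, and the part that the number of these cells has in the difference was not tested.

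**Figure D3:**
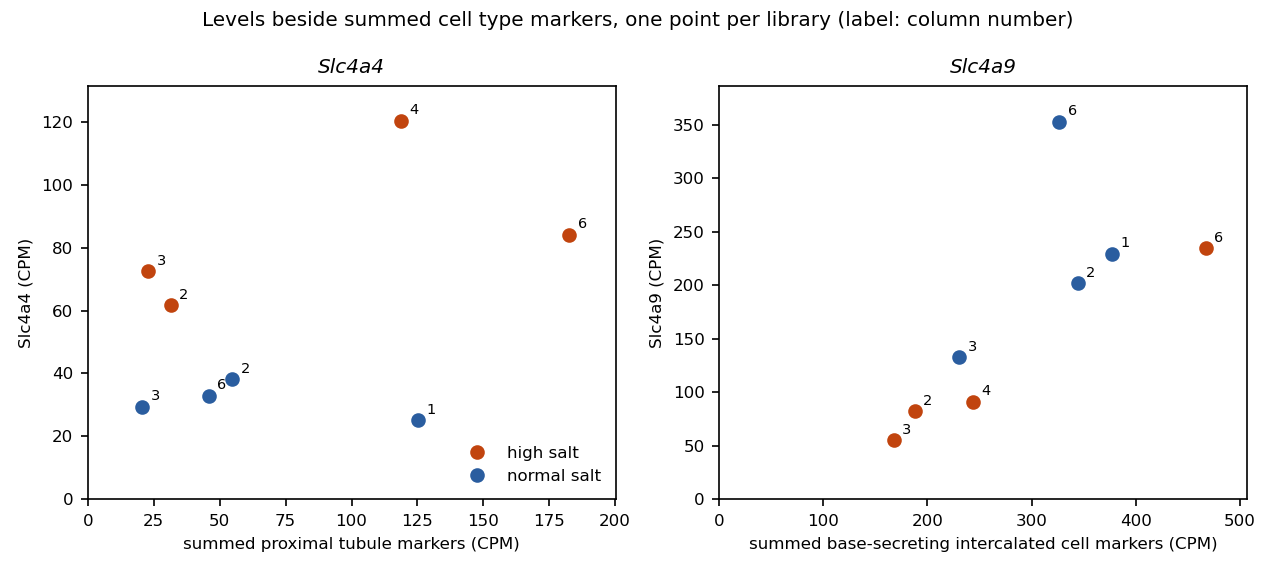
Level of Slc4a4 against summed proximal tubule markers (left) and of Slc4a9 against summed markers of base-secreting intercalated cells (right), in CPM, with 1 point per library labelled by column number. All 4 high-salt points lie above the normal-salt points for Slc4a4, at 61.7 to 120 CPM against 25.2 to 38.2 CPM, while marker sums overlap in both panels.

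Slc4a11, known in the mouse kidney from the thin descending limb, had 7.65, 31.9, 20.5 and 10.8 CPM under high salt, against 4.64, 7.62, 17.7 and 12.8 CPM under normal salt. The diets overlapped, and the log2 difference was 0.63 (SE 0.44, 95% interval -0.35 to 1.61, adjusted p = 0.688). The 6 thin limb markers summed to 194, 369, 418 and 234 CPM under high salt and 125, 248, 355 and 184 CPM under normal salt. In each diet the library lowest in Slc4a11 was also the lowest in these markers, and their part in its spread was not tested.

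Read over the 9 tested members, 1 was called (higher), 3 had an unadjusted p under 0.05 (Slc4a4 and Slc4a7 higher, Slc4a9 lower), and in 1 the diets did not overlap. Over all genes tested, 0.0821% were called, 10.3% had an unadjusted p under 0.05 (5.95% higher and 4.37% lower) and 6.4% did not overlap. The call of Slc4a4 was known beforehand from an earlier analysis of these data. The median log2 difference was 0.03 over the 9 members and 0.01 over all genes tested. Exact permutation tests were computed for all 10 members, and that of Slc4a4 alone was under 0.05.

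**Figure D4:**
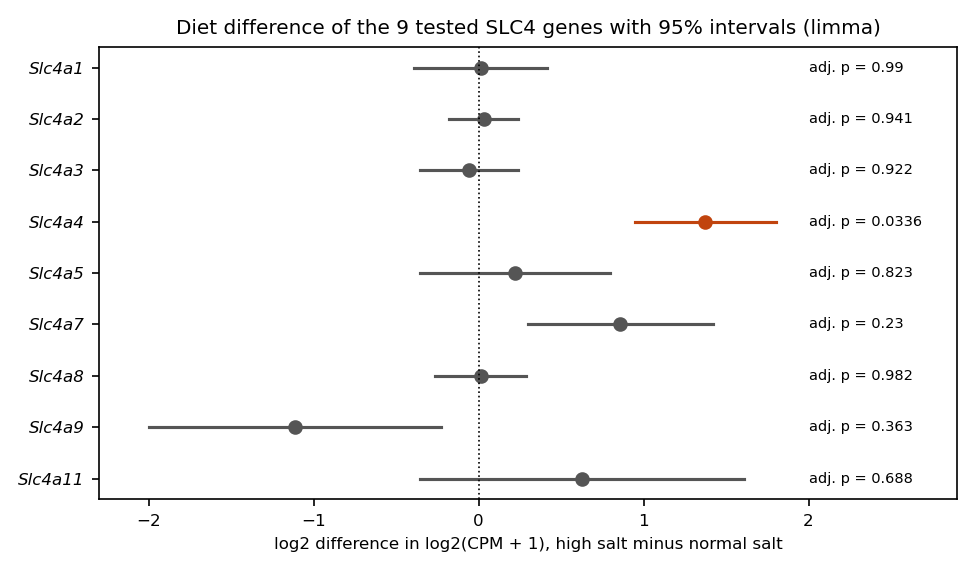
Log2 difference (high salt minus normal salt, on the log2(CPM + 1) scale) of the 9 tested SLC4 genes, with 95% intervals and adjusted p from limma. Slc4a4, in red, has an adjusted p of 0.0336; the intervals of Slc4a7 and Slc4a9 leave out 0 but their adjusted p is 0.23 and 0.363.

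**Figure D5:**
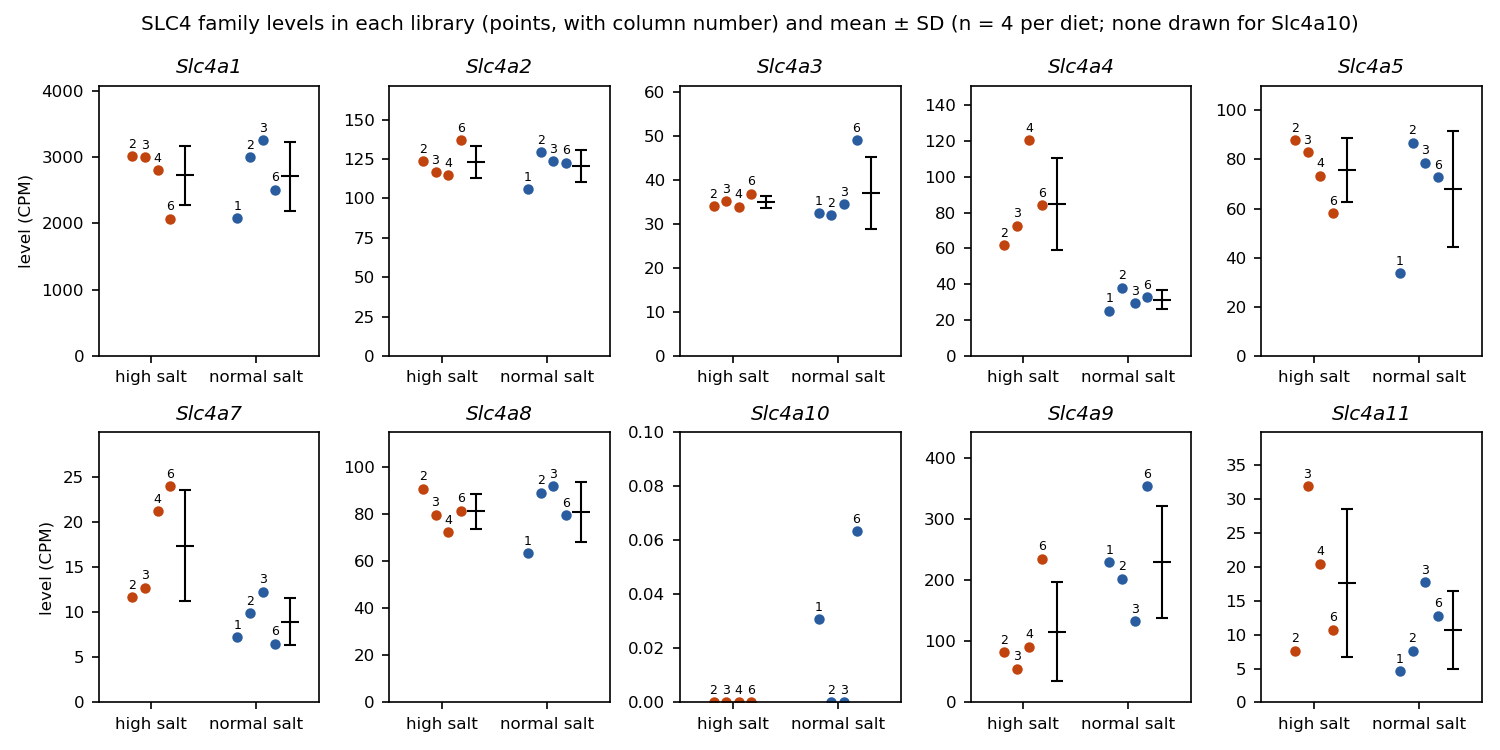
Level of each SLC4 gene in CPM (vertical axis from 0) in the 4 high-salt (left) and 4 normal-salt (right) libraries, labelled by column number, with mean ± SD. The diets are separate for Slc4a4 and overlap for the others.

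Genes that work with SLC4 transporters were taken from 8 lists with 59 genes, of which 48 were tested. By limma, 0 of the 48 passed over all genes, with 2 higher and 6 lower at an unadjusted p under 0.05. Of all 13401 genes tested, 0.0821% passed, and 5.95% were higher and 4.37% lower at an unadjusted p under 0.05. In direction, 24 of the 48 were higher and 24 lower, against 7076 and 6325 of all genes tested. The median log2 difference was 0.004, against 0.01 over all genes tested. With voom on the estimated counts 0 of the 48 passed as well, again with 2 higher and 6 lower at an unadjusted p under 0.05. Values of listed genes are means ± SD of 4 libraries in CPM.

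Carbonic anhydrases make bicarbonate and protons from carbon dioxide and water. Of 16, 10 were tested, 7 with a higher and 3 with a lower log2 mean under high salt. Car15, a membrane-bound form, had 332 ± 209 CPM under high salt and 40.1 ± 41.4 CPM under normal salt (log2 difference 3.19, adjusted p = 0.0815). Car12, a membrane form of principal and intercalated cells, had 618 ± 75.4 and 840 ± 140 CPM (-0.44, adjusted p = 0.262). Car2, the abundant cytosolic form, was chosen with its values known and had 1379 ± 63.1 and 1421 ± 242 CPM (-0.03, adjusted p = 0.962).

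The proton pump of intercalated cells supplies the bicarbonate that AE1 returns to the blood. All 5 listed subunits had lower log2 means under high salt, as did 6325 of all 13401 genes tested. By limma, 0 passed over all genes, and 2 were lower at an unadjusted p under 0.05, as were 4.37% of all genes tested. Atp6v1b1 had 677 ± 37.3 CPM under high salt and 896 ± 70.2 CPM under normal salt (log2 difference -0.40, adjusted p = 0.159), and Atp6v1c2 had 191 ± 15.6 and 236 ± 19.2 CPM (-0.30, adjusted p = 0.259). Of the 4 intercalated cell transcription factors, 1 was higher and 3 were lower, and 0 had an unadjusted p under 0.05. Dmrt2 had 220 ± 51.6 and 178 ± 35.8 CPM (0.29, adjusted p = 0.661), and Hmx2 had 16.3 ± 13.3 and 20.9 ± 8.21 CPM (-0.54, adjusted p = 0.746).

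Of the 4 SLC26 anion exchangers, 0 passed limma's test. Slc26a4 had 91.0 ± 83.4 CPM under high salt and 129 ± 37.8 CPM under normal salt (log2 difference -0.82, adjusted p = 0.6), and Slc26a11 had 5.31 ± 1.13 and 7.35 ± 1.19 CPM (-0.41, adjusted p = 0.449). Of 7 tested sodium-proton exchangers and their scaffolds, 3 were higher and 4 lower. Slc9a4, a basolateral exchanger, had 15.4 ± 3.13 CPM under high salt and 19.8 ± 3.89 CPM under normal salt (-0.35, adjusted p = 0.533).

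Regulators of sodium bicarbonate cotransporters had higher log2 means in 6 of 7, with 0 at an unadjusted p under 0.05. Wnk4, a kinase of ion transport, had 144 ± 17.2 CPM under high salt and 126 ± 16.0 CPM under normal salt (log2 difference 0.19, adjusted p = 0.624), and Ahcyl2, a relative of the NBCe1 activator IRBIT, had 176 ± 4.56 and 158 ± 21.2 CPM (0.16, adjusted p = 0.645). Of 7 tested anchors and sorting proteins of AE1, 4 were higher and 3 lower. Ank3, an ankyrin that ties membrane proteins to the cytoskeleton, had 165 ± 10.8 and 138 ± 15.9 CPM (0.26, adjusted p = 0.397), and Ap1m1, a clathrin adaptor subunit, had 40.4 ± 1.5 and 36.7 ± 2.97 CPM (0.14, adjusted p = 0.659).

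Sensors of pH and bicarbonate had 4 of 7 genes past the filter. Insrr, a receptor activated by alkaline fluid, had 45.8 ± 29.5 CPM under high salt and 77.0 ± 24.2 CPM under normal salt (log2 difference -0.86, adjusted p = 0.452). Ptprg, a bicarbonate-sensing phosphatase, had 35.6 ± 4.70 and 29.9 ± 7.14 CPM (0.26, adjusted p = 0.624). Insrr is also among the markers of base-secreting intercalated cells given beside Slc4a9.

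Likeness to a member was measured as the root mean square difference between log2(CPM + 1) values, each centred on its mean over the 8 libraries, among 10426 genes with at least 5 CPM on average. The values of Slc4a4 lay 0.75 from their own mean on this scale. The nearest genes were Kctd15 (0.16), Fjx1 (0.20), Il17rd (0.23), Fam129a (0.24) and Pappa (0.25). Kctd15 had 39.9 ± 14.8 CPM under high salt and 16.8 ± 3.52 CPM under normal salt (log2 difference 1.16, adjusted p = 0.0815), and Pappa had 363 ± 174 and 122 ± 44.0 CPM (1.51, adjusted p = 0.0937). None of the 5 was called by limma over all genes, at adjusted p-values of 0.0529 to 0.0943.

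For Slc4a1, whose values lay 0.24 from their mean, the nearest genes were Rapgefl1 (0.08), Stxbp5 (0.10), Ermp1 (0.10), Zfp729a (0.11) and Lrrc8e (0.11). Ermp1 had 260 ± 31.1 CPM under high salt and 248 ± 36.3 CPM under normal salt (log2 difference 0.07, adjusted p = 0.89). Likeness over 8 libraries also follows what the libraries share, such as the makeup of the dissected tubules.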

How the data were processed

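RNA of dissected collecting ducts was measured in 8 libraries, 4 per diet. The build was mm10 and the tools FastQC and Trimmomatic, per the submitters' processing notes. For the aligner, counter, strand setting and gene models, no source used here names one. The authors deposited a TPM table and a table named CPM that held log2 values with a floor of -5.29, per the file headers and the values. The test had been planned for CPM on a linear scale, so 2 was raised to each value, the floor taken off, and each library scaled to 1000000. CPM steps gave estimated counts, of which 84.7% to 85.9% were whole within 0.005, so no count model was the main test.

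Genes with at least 1 CPM in at least 4 libraries were tested as log2(CPM + 1). The test was that of limma 3.58.1, run in R 4.3.3 (lmFit, eBayes with trend, two-sided, Benjamini-Hochberg adjustment over all genes kept, called under 0.05). Fold changes on this scale understate those of low genes. The script was tested on simulated data. Each library is 1 mouse, per the labels.

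The members and lists were chosen with earlier results of these data known, among them a call of Slc4a4. Named genes were all members, the 2 listed genes of smallest p per list, the 2 most abundant markers where markers are named, and the 5 genes nearest to Slc4a1 and Slc4a4 without predicted genes; 1 listed gene is not reported here. Alternatives covered pseudocount, filter, scaling, TPM, moderation, weights, voom, covariates, a block and each library left out. Positions came from GENCODE M21 and promoter windows from RefSeq.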

Additional observations from a re-analysis of the deposited data

Results flagged for a closer look

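Slc4a3 had 49.0 CPM in normal-salt library 6, whose gap to the next library was 0.849 of the whole range of its diet, above the critical value of 0.829 for 4 samples. It was the 1 flag among 19 sets of 4 libraries looked at, and chance flags about 1 in 20 such sets.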

How the results depend on the processing

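Slc4a4 kept its direction under all 23 alternatives, and limma called it under 15. With 1 library left out at a time its log2 difference was 1.19 to 1.51, the number of SLC4 members called was 0 or 1, and the number of genes called over the table was 0 to 50. The Slc4a4 call was lost with no filter on low values (log2 difference 1.37, adjusted p = 0.228, 0 members and 0 genes called, 1933 genes at an unadjusted p under 0.05), in TPM (1.27, adjusted p = 0.116, 0 members and 5 genes called) and without the trend in moderation (1.37, adjusted p = 0.0578, 0 members called); the cause was not tested.

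The count of genes called was 22 with robust moderation, 129 with array quality weights and 39 with the thick ascending limb covariate. The numbers in the column names are not those of the titles and the labels name no pairs, so same-numbered libraries were not taken as pairs. Deviations of same-numbered libraries correlated at 0.208, 0.287 and 0.002 (across genes), with 2 of 3 high-salt libraries nearest to their own number. Whether they are pairs is not settled by these values. With the number as a replicate block in the 6 libraries that share one, 37 genes and 2 members (Slc4a4 and Slc4a9) were called, against 23 genes in the same 6 libraries without the block, a fit added after seeing the data.

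Signs turned for members near 0. Slc4a1 was -0.00227 with upper quartile scaling, -0.10 with array weights, -0.22 with the thick ascending limb covariate and -0.13 in the 6 libraries with or without the block, and ran from -0.109 to 0.137 with 1 library left out. Slc4a2 was -0.00354 in TPM and -0.029 with array weights (-0.0294 to 0.0656 with 1 library left out), and Slc4a3 was 0.00272 in TPM (-0.119 to 0.0815). Slc4a5 was -0.0107 with array weights, -0.0615 with the thick ascending limb covariate and -0.0762 in the 6 libraries with or without the block (-0.0843 to 0.364). Slc4a8 was -0.00144 with upper quartile scaling, -0.14 in TPM, -0.10 with array weights, -0.0684 with the thick ascending limb covariate and -0.0474 in the 6 libraries with or without the block (-0.0995 to 0.0766). Slc4a7, Slc4a9 and Slc4a11 kept their signs throughout, and low counts kept Slc4a10 out of limma's test.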
